A study of Homo sapiens with 12 samples.

Results

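The E2F transcription factors and the retinoblastoma family, whose proteins are also called pocket proteins, were described through 10 genes, E2F1, E2F2, E2F3, E2F4, E2F5, E2F7, E2F8, RB1, RBL1 and RBL2. They were taken as the entries of the raw count table whose gene name equals 1 of these symbols, that is 10 of the 44659 genes in the table. Their mRNAs were measured by RNA sequencing in A375 cells, an established human melanoma line that carries an activating BRAF mutation, in 12 libraries that form 4 groups of 3 replicates. The MAPKi group was exposed for 24 h to 500 nM vemurafenib, an inhibitor of mutant BRAF, combined with 500 nM cobimetinib, an inhibitor of MEK, and the DMSO group served as its control at 24 h. The Gln-depleted group was kept for 24 h in medium without glutamine, and the CTRL group in medium with 2 mM glutamine. All groups shared DMEM with serum, the glutamine supplement was present in all groups but the depleted one, and none carried a genetic alteration beyond those of the line, so that every result concerns 1 cell line. RNA came from the cytoplasmic fraction per the labels, while the methods of the study describe total RNA, so whether the levels are cytoplasmic only is uncertain. It was depleted of ribosomal RNA. MAPKi and DMSO libraries belong to sequencing batch 2 and CTRL and Gln-depleted libraries to sequencing batch 1, so that levels were tested only within an experiment. Within the glutamine experiment, replicate 1 of both groups belongs to experimental batch 1 and replicates 2 and 3 to experimental batch 2. The labels do not say that replicates came from separate cultures, and p-values then measure only the spread between these libraries, which may be technical.

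E2F factors bind the promoters of genes for DNA replication and the cell cycle. E2F1, E2F2 and E2F3 are known as activators, E2F4 and E2F5 act mostly as repressors in complex with pocket proteins, and E2F7 and E2F8 are atypical repressors that work without a pocket protein and without a dimerization partner of the DP family. RB1, RBL1 (p107) and RBL2 (p130) hold E2F factors in check until cyclin-dependent kinases phosphorylate them, cyclin D with CDK4 or CDK6 first, and in melanoma cells the BRAF and MEK pathway is a main driver of cyclin D1. RBL2 together with E2F4 or E2F5 and the MuvB core forms the DREAM complex, which represses cell-cycle genes in quiescent cells, and E2F1, E2F2, E2F7, E2F8 and RBL1 are themselves textbook E2F targets.

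The 12 libraries held between 31056296 and 40071368 reads assigned to genes. DUSP6, a phosphatase induced by ERK, ranged from 122 to 129.8 CPM (counts scaled to the total of each library) in DMSO and from 0.0569 to 0.253 CPM in MAPKi libraries, and TRIB3, a gene of the amino acid stress response, ranged from 53.4 to 74 CPM in CTRL and from 555 to 649 CPM in Gln-depleted libraries. Of 8 melanocyte lineage markers, 6 reached 1 CPM in each DMSO, CTRL and Gln-depleted library and 8 in each MAPKi library. MLANA and TYR were below 1 CPM in the CTRL and Gln-depleted libraries. The summed level of these markers ranged from 1497 to 1608 CPM in DMSO, 8889 to 11193 CPM in MAPKi, 1171 to 1395 CPM in CTRL and 747 to 834 CPM in Gln-depleted libraries. Of 11 markers of epithelial, immune, endothelial and fibroblast cells, 9 stayed below 1 CPM in every library (EPCAM, KRT5, KRT14, CDH1, PTPRC, CD3E, PECAM1, CDH5 and COL1A2). Of the remaining fibroblast markers, COL1A1 ranged from 0.815 to 1.12 CPM in DMSO, 1.56 to 1.8 in MAPKi, 0.472 to 1.06 in CTRL and 0.131 to 0.435 CPM in Gln-depleted libraries. PDGFRA ranged from 4.82 to 6.05 CPM in DMSO, 4.05 to 6.49 in MAPKi, 4.25 to 4.99 in CTRL and 10.1 to 13.4 CPM in Gln-depleted libraries, higher in each Gln-depleted than in each CTRL library. The sum of the 11 was 6.32 to 7.80 CPM in DMSO, 6.30 to 8.59 in MAPKi, 5.17 to 6.44 in CTRL and 11.1 to 14.6 CPM in Gln-depleted libraries. RN7SK, a small nuclear RNA, took 1.93 to 2.15% of the reads in DMSO and 3.95 to 4.40% in MAPKi libraries, and 1.55 to 2.25% in CTRL and 1.99 to 3.79% in Gln-depleted libraries. The part of these shifts in the results below was not tested.

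The promoters of the family differ in letter matches to an E2F motif. The stretches below include members with and without such a match, and any part of these matches in the changes was not tested. RefSeq windows from 250 bases before to 50 bases after a transcription start (build GRCh38.p14) were matched for 8 of the 10 members, not for E2F5 and E2F8, and the only window of RB1 lies at an internal start. The 5 below are printed 5′ to 3′ on the strand of the gene. Capitals mark the E2F motif TTTNNCGC on either strand. The windows are chr20:33686336-33686635 for E2F1 (minus strand), chr6:20401629-20401928 for E2F3 (plus strand), chr12:77065520-77065819 for E2F7 (minus strand), chr20:37095948-37096247 for RBL1 (minus strand) and chr16:53434221-53434520 for RBL2 (plus strand).
E2F1: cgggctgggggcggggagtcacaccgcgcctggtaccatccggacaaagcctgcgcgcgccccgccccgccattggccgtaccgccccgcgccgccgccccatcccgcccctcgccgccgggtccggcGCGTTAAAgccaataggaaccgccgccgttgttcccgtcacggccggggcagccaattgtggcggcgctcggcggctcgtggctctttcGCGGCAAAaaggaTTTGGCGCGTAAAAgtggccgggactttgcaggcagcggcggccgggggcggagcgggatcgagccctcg
E2F3: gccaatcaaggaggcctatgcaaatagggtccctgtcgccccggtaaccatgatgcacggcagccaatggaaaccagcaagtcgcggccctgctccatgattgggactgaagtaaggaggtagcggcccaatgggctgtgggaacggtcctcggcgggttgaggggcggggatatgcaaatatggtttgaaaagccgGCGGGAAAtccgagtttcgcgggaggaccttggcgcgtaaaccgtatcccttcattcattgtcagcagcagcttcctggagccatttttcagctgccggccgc
E2F7: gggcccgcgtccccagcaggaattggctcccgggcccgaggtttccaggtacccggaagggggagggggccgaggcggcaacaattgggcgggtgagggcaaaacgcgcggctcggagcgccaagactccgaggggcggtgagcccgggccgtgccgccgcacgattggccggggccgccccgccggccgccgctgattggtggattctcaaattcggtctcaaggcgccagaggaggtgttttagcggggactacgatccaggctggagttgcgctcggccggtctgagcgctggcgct
RBL1: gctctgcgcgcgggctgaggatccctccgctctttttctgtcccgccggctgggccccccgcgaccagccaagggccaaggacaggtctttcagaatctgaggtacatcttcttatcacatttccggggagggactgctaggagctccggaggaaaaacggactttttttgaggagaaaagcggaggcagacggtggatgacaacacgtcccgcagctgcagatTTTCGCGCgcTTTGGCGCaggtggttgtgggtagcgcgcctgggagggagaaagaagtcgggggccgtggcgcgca
RBL2: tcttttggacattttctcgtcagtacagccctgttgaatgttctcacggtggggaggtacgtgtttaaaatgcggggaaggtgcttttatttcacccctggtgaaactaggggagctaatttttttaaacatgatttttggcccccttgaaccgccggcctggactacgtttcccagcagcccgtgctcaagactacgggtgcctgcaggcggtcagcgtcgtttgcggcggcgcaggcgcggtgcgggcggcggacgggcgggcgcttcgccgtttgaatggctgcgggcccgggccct

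The E2F1 window held 4 matches, whose first bases lie 122, 33, 20 and 14 bases upstream of the start, the last pair overlapping. RBL1 held 2 matches, 26 and 16 bases upstream, and E2F3 held 1, 53 bases upstream. The windows of E2F7 and RBL2 held none, and neither did that of E2F4, while E2F2 held 3. TTTNNCGC occurred in 6.89% of all 35116 windows of this length and in 9.41% of the 15226 windows of tested genes. The NF-Y box CCAAT, also searched on both strands, was found in 34.6% of all windows. It occurred 4 times in the window of E2F7, 4 times in that of E2F3 and 3 times in that of E2F1. The CHR element TTTGAA, through which the MuvB core binds, was found in 15.2% of all windows, and at 1 position each in the windows of E2F3 and RBL2. E2F3 and RBL2 each had a further window at another start, not counted above. That of E2F3 held none of these motifs, and that of RBL2 held 1 CCAAT and no other match. A match is a description of these letters and not a measured site.

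**Figure D1:**
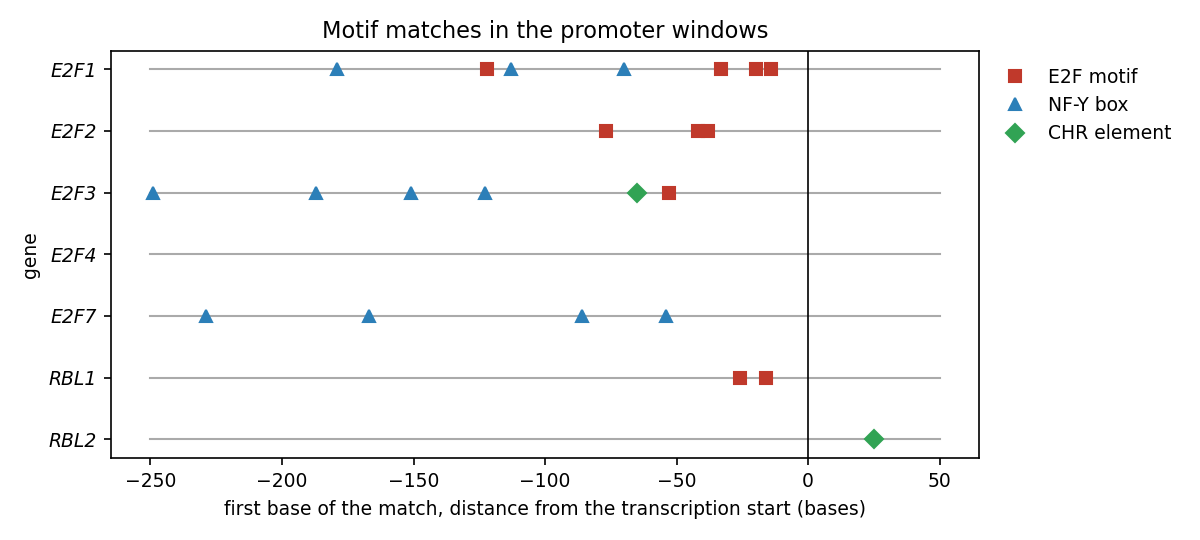
Positions of 3 motifs in the RefSeq promoter windows of 7 members, by distance in bases from the transcription start. Points mark the E2F motif, the NF-Y box and the CHR element; E2F1 carries 4 E2F motif matches, RBL1 carries 2, and E2F4, E2F7 and RBL2 carry none.

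To set the members side by side, counts were divided by exon length (TPM). They were then scaled to the sum of such values over protein-coding genes in each library, without TMM. Changes between groups can therefore differ from those in CPM. In DMSO libraries, RB1 was the most abundant member at a level of 106 ± 1.42 TPM (SD, n = 3), followed by E2F4 at 85.6, E2F1 at 74, RBL2 at 66.2, E2F3 at 53.7, RBL1 at 47.8, E2F7 at 34.9, E2F8 at 12.2 and E2F5 at 7.99 TPM. The library ranges of neighbours in this order did not overlap. In MAPKi libraries the order became RB1 (100.5 ± 1.97 TPM), RBL2 (93), E2F4 (64.5), E2F3 (37.7), RBL1 (35), E2F7 (11.6), E2F1 (11.3), E2F5 (3.18) and E2F8 (2.45 TPM), and only E2F7 and E2F1 overlapped as neighbours. In CTRL libraries E2F4 led at 128 ± 22.5 TPM, and the levels of E2F1 (93.7), RB1 (84.6), E2F3 (68.4), RBL2 (57.4), RBL1 (40.6) and E2F7 (36.6 TPM) each overlapped with the next. E2F8 (11.3) and E2F5 (10.0 TPM) came last and overlapped with each other. Gln-depleted libraries had the order E2F4 (187 ± 24.4 TPM), RB1 (97.1), RBL2 (69), E2F1 (68.3), E2F7 (54.9), E2F3 (49.4), RBL1 (34.8), E2F5 (11) and E2F8 (3.84 TPM). There, neighbours from RB1 to E2F3 overlapped and the others did not.

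E2F2, an activator like E2F1, was almost absent from the table. It had between 0 and 3 reads per library, 10 reads over the 12 libraries, and did not reach the mean normalized count of 10 asked for a test. A second entry named as a further copy of E2F2 held 689 reads, between 3 and 210 per library, so how reads were split between both entries is uncertain, and no change is given for it among the members. The results below therefore cover 9 of the 10 members.

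Exposure to MAPKi lowered the mRNAs of both measured activators, and E2F1 lost most of its reads. E2F1 (chr20:33675477-33686385, GRCh38) stood at 40.6, 42.9 and 38.9 CPM in the DMSO libraries and at 6.35, 5.38 and 5.32 CPM in the MAPKi libraries. Every MAPKi library was far below every DMSO library, with means of 40.8 ± 2.03 against 5.68 ± 0.575 CPM (SD, n = 3). The log2 fold change was -2.84 (SE 0.0796, 95% interval -3.02 to -2.66), so that the level decreased by 86.1% (edgeR, adjusted p = 2.7e-09 against no change and 7.1e-09 against a 1.5-fold change). E2F3 (chr6:20401879-20493714), the other activator, was at 57.9, 57.4 and 56.1 CPM in DMSO and at 36.2, 36.2 and 37.3 CPM in MAPKi libraries. The groups did not overlap, and the interval of the log2 fold change lay apart from that of E2F1, at -0.64 (SE 0.040, 95% interval -0.74 to -0.55), so that the level decreased by 36%. It passed the test against no change (adjusted p = 3.7e-07) and missed the test against a 1.5-fold change (adjusted p = 0.071). In cell populations such as these, fewer cells in a given phase of the cycle and less mRNA per cell cannot be told apart.

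**Figure D2:**
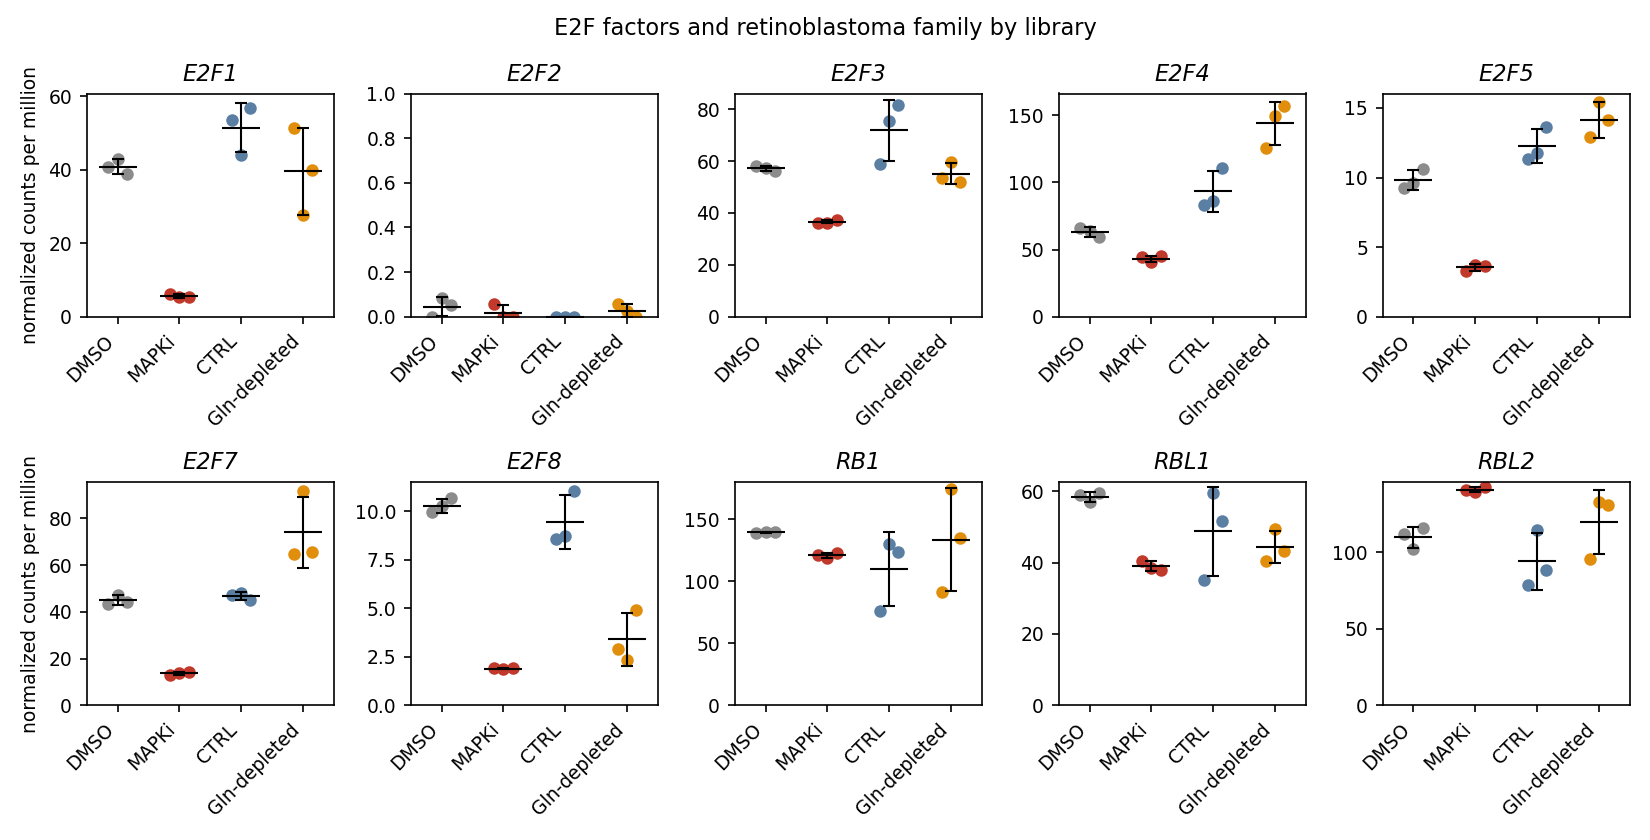
Levels of the 10 members in CPM in each of the 12 libraries, with the mean and SD of each group of 3. E2F1, E2F7 and E2F8 drop in the MAPKi libraries, RBL2 rises there, and in the Gln-depleted libraries E2F8 is low while E2F7 and E2F4 are high; E2F2 stays near 0 throughout.

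The repressor genes also fell with MAPKi, E2F5, E2F7 and E2F8 by more than 1.5-fold. E2F4 (chr16:67192155-67198918), the main E2F of quiescent cells, was at 66.3, 63.6 and 59.2 CPM in DMSO and 44.2, 40.8 and 45.1 CPM in MAPKi libraries. These groups did not overlap, and the log2 fold change was -0.54 (SE 0.0564, 95% interval -0.67 to -0.41, adjusted p = 1.5e-05), which did not exceed 1.5-fold (adjusted p = 1). E2F5 (chromosome 8), the close relative of E2F4 and the lowest in TPM of the tested members in DMSO, had 9.26, 9.62 and 10.6 CPM in DMSO and 3.27, 3.74 and 3.68 CPM in MAPKi libraries. Its log2 fold change of -1.46 (SE 0.102, 95% interval -1.69 to -1.23) passed both tests (adjusted p = 8.0e-07 and 1.2e-05). E2F7 (chr12:77021251-77065569) went from 43.2, 47.4 and 44.4 CPM to 13, 13.6 and 14.4 CPM, so that the highest MAPKi library lay below the lowest DMSO library. The log2 fold change was -1.72 (SE 0.0606, 95% interval -1.86 to -1.58, adjusted p = 9.3e-09 and 6.1e-08 against a 1.5-fold change). E2F8 (chr11:19224063-19241655), which pairs with E2F7, went from 9.96, 10.3 and 10.7 CPM to 1.91, 1.87 and 1.92 CPM, a log2 fold change second in size to that of E2F1 among the members, at -2.44 (SE 0.0954, 95% interval -2.66 to -2.22, adjusted p = 1.8e-08 and 6.1e-08).

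The pocket protein genes split with MAPKi, with RBL2 the only member that rose. RB1 (chr13:48303751-48481890), the retinoblastoma gene itself, was at 139, 139.9 and 139 CPM in DMSO and at 121, 119 and 123 CPM in MAPKi libraries. The difference was small beside the level but larger than the spread, at -0.21 (SE 0.0392, 95% interval -0.29 to -0.12, adjusted p = 0.00094). It did not pass after correction for GC content (-0.091, adjusted p = 0.066), nor in 1 fit of all 12 libraries (adjusted p = 0.48). RBL1 (chr20:36996349-37095997), the pocket protein of cycling cells, was at 58.9, 56.9 and 59.4 CPM in DMSO and 40.5, 38.5 and 38 CPM in MAPKi libraries. It fell by 0.58 on the log2 scale (SE 0.0439, 95% interval -0.68 to -0.48, adjusted p = 1.4e-06). RBL2 (chr16:53434471-53491648), the pocket protein of resting cells, was at 112, 102 and 116 CPM in DMSO and at 141, 139 and 143 CPM in MAPKi libraries. All MAPKi libraries lay above all DMSO libraries, with a log2 fold change of 0.36 (SE 0.0518, 95% interval 0.24 to 0.48, adjusted p = 0.00015 and 0.082 in the fit of all 12 libraries). None of the 3 pocket protein genes exceeded a 1.5-fold change (adjusted p = 1, 0.58 and 1 for RB1, RBL1 and RBL2).

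Of the 9 tested members, 8 fell with MAPKi against no change, where 38.2% of all 12595 tested genes were lower, and 1 rose, where 39.8% of all were higher. Against a 1.5-fold change, 4 members (E2F1, E2F5, E2F7 and E2F8) were lower, where 18.1% of all genes were lower, and 0 were higher (0 also at an unadjusted p under 0.05 and with DESeq2), where 17.5% of all were higher. The library ranges of MAPKi and DMSO did not overlap for any tested member, while they were apart with MAPKi lower for 39.7% and with MAPKi higher for 41.0% of tested genes. The median log2 fold change over all tested genes was 0.019.

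The partners that E2F1 to E2F6 need for binding moved in opposite directions. TFDP1, the main DP subunit, was at 202, 206 and 190.0 CPM in DMSO and at 88, 90.5 and 90.7 CPM in MAPKi libraries, a log2 fold change of -1.15 (SE 0.0468, 95% interval -1.26 to -1.05, adjusted p = 2.2e-08). TFDP2, the alternative subunit, was at 46.3, 46.7 and 48.3 CPM in DMSO and 60.3, 61.8 and 61.7 CPM in MAPKi libraries and rose by 0.38 (SE 0.0391, adjusted p = 1.3e-05). E2F6, a repressor that acts through polycomb-like complexes, fell by 0.47 on the log2 scale (SE 0.0581, adjusted p = 4.9e-05) from 22 ± 0.963 to 15.9 ± 0.307 CPM (SD, n = 3). TFDP3 had 2 reads over the 12 libraries and was not tested.

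These unequal changes shifted the makeup of the family, given here without a test as shares of summed TPM. The summed level of E2F1 to E2F8 went from 295 ± 10.6 TPM in DMSO to 152 ± 3.5 TPM in MAPKi libraries. Within it, the share of E2F1 went from 25.1% ± 0.721 to 7.45% ± 0.734 and that of E2F4 from 29% ± 1.17 to 42.5% ± 1.16 (SD, n = 3). E2F3 took 18.2% ± 0.218 and 24.8% ± 0.446, so that a smaller family in MAPKi libraries was made mostly of E2F4 and E2F3. For the pocket proteins the sum was 219.7 ± 3.58 TPM in DMSO and 228 ± 2.61 TPM in MAPKi libraries. The direction of this small difference is uncertain, because TPM was not scaled by TMM. By TPM, RB1 went from 106 to 100.5 and RBL2 from 66.2 to 93. In the TMM-based fit, RB1 changed by -13.3%, RBL1 by -33.2% and RBL2 by 28.2%. Shares and ratios within a library do not depend on this scaling. RBL2 went from 30.1% ± 1.2 to 40.7% ± 0.226 of the pocket protein sum, and the ratio of RBL2 to RBL1 from 1.38 ± 0.0547 to 2.66 ± 0.102. The ratio of TFDP2 to TFDP1 went from 0.0745 ± 0.0048 to 0.215 ± 0.000818. In the glutamine experiment, the E2F sum was 384 ± 50.6 TPM in CTRL and 417 ± 21.8 TPM in Gln-depleted libraries, with E2F4 at 33.2% ± 1.49 and 44.7% ± 3.6. E2F1 took 24.6% ± 2.81 in CTRL and 16.5% ± 5.37 in Gln-depleted libraries. The ratio of RBL2 to RBL1 was 1.44 ± 0.197 in CTRL and 1.98 ± 0.245 in Gln-depleted libraries, and the ranges of both groups did not overlap.

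**Figure D3:**
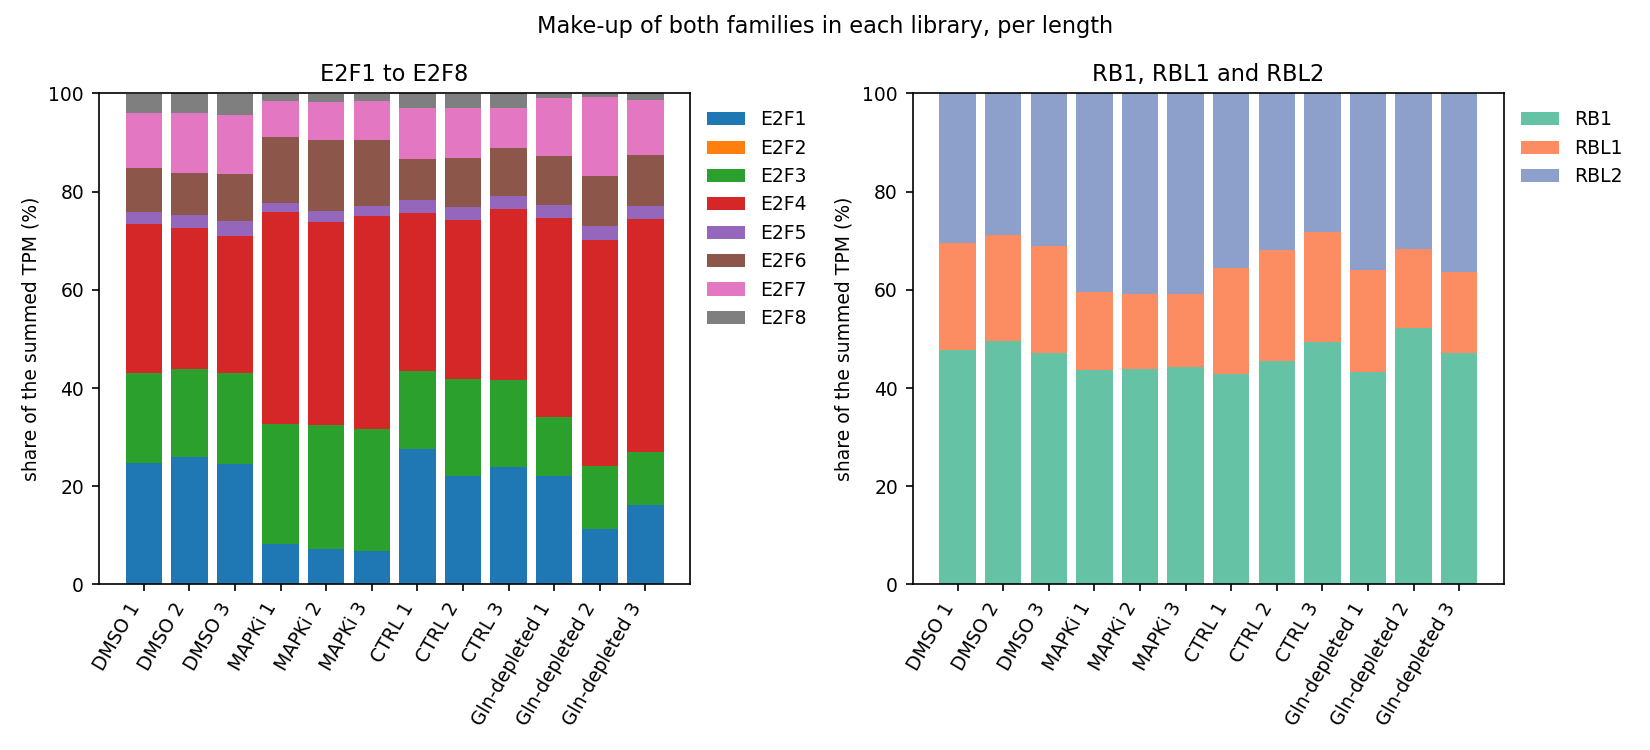
Share of summed TPM taken by each gene in each library, for E2F1 to E2F8 and for RB1, RBL1 and RBL2. E2F1 shrinks from 25.1% of the E2F sum in DMSO libraries to 7.45% in MAPKi libraries, where E2F4 is the widest band, and RBL2 widens in the pocket protein panel.

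With glutamine depletion 2 of the 9 tested members passed the test, in opposite directions. Of all 12512 tested genes, 7.94% were lower and 9.73% higher. CTRL and Gln-depleted libraries of the same number deviated together, so adjusted p-values with the replicate number as a block are given where they change the outcome. E2F1 was at 53.4, 43.9 and 56.8 CPM in CTRL and 51.2, 27.6 and 39.9 CPM in Gln-depleted libraries. The groups overlapped, replicate 2 of the Gln-depleted group being lowest and replicate 1 within the CTRL range. The log2 fold change of -0.34 (SE 0.254, 95% interval -0.92 to 0.24) did not pass the test (edgeR, adjusted p = 0.37 and 0.069 with the block), with log2 ratios of -0.060 in experimental batch 1 and -0.59 in batch 2. E2F3 was at 58.9, 75.3 and 81.5 CPM in CTRL and 53.7, 59.7 and 51.9 CPM in Gln-depleted libraries. It overlapped too, with a log2 fold change of -0.35 (SE 0.20, 95% interval -0.81 to 0.11, adjusted p = 0.25) and ratios of -0.13 in experimental batch 1 and -0.49 in batch 2.

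The repressors went apart under glutamine depletion: E2F8 fell and E2F7 rose. E2F8 was at 8.6, 8.71 and 11.1 CPM in CTRL and 2.93, 2.35 and 4.92 CPM in Gln-depleted libraries, each of the latter below each of the former. Its log2 fold change was -1.44 (SE 0.328, 95% interval -2.19 to -0.69, adjusted p = 0.022), with ratios of -1.55 in experimental batch 1 and -1.53 in batch 2. The adjusted p was 0.061 without CTRL replicate 2, 0.081 without CTRL replicate 3 and 0.081 without Gln-depleted replicate 2, and 0.0013 with the block. E2F7 was at 47.3, 48.1 and 44.9 CPM in CTRL and 65, 91.6 and 65.5 CPM in Gln-depleted libraries, replicate 2 being highest. It rose by 0.70 on the log2 scale (SE 0.205, 95% interval 0.23 to 1.17, adjusted p = 0.048), with ratios of 0.46 in experimental batch 1 and 0.74 in batch 2. This outcome lay close to the threshold, with an adjusted p of 0.080, 0.13 and 0.15 without CTRL replicates 1, 2 and 3, of 0.18 and 0.093 without Gln-depleted replicates 2 and 3, and of 0.0053 with the block. The ratio of E2F7 to E2F8 was 3.3 ± 0.549 in CTRL and 16.3 ± 8.56 in Gln-depleted libraries, from TPM and without a test.

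E2F4 was at 83.1, 86 and 111 CPM in CTRL and 126, 149 and 157 CPM in Gln-depleted libraries, and the groups did not overlap. Its log2 fold change was 0.66 (SE 0.204, 95% interval 0.19 to 1.13), with an adjusted p of 0.057 without and 0.0034 with the replicate block and ratios of 0.60 in experimental batch 1 and 0.65 in batch 2. E2F5 was at 11.3, 11.8 and 13.6 CPM in CTRL and 12.9, 15.4 and 14.1 CPM in Gln-depleted libraries, overlapping groups with a log2 fold change of 0.25 (SE 0.205, 95% interval -0.22 to 0.71, adjusted p = 0.43).

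Among the pocket protein genes, none passed the test in the unpaired fit. RB1 was at 75.7, 130.3 and 123 CPM in CTRL and 91.6, 174 and 135 CPM in Gln-depleted libraries, where replicate 1 of both groups was low. The log2 fold change was 0.32 (SE 0.302, 95% interval -0.37 to 1.01, adjusted p = 0.49 and 0.063 with the block). RBL1 was at 35.1, 59.6 and 51.6 CPM in CTRL and 40.6, 49.4 and 43.2 CPM in Gln-depleted libraries, with replicate 1 of CTRL the lowest of all. Its log2 fold change was -0.10 (SE 0.239, 95% interval -0.65 to 0.45, adjusted p = 0.80), and the ratios were 0.21 in experimental batch 1 and -0.26 in batch 2. RBL2 was at 79, 115 and 88.6 CPM in CTRL and 95.9, 133 and 131 CPM in Gln-depleted libraries, with each Gln-depleted library above the CTRL library of its number. Its log2 fold change of 0.39 (SE 0.226, 95% interval -0.13 to 0.90) had an adjusted p of 0.26 without and 0.032 with the block, and ratios of 0.28 in experimental batch 1 and 0.39 in batch 2.

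Thus 1 of the 9 tested members (E2F8) fell, where 7.94% of all 12512 tested genes were lower, and 1 (E2F7) rose, where 9.73% of all were higher. With the replicate block 1 member fell and 3 rose (E2F4, E2F7 and RBL2), where 22.9% of all genes were lower and 25.6% higher. With the block and GC correction RBL2 did not pass (log2 fold change 0.26, adjusted p = 0.11), which left 2 higher. Against a 1.5-fold change 0 members were lower in edgeR (1, E2F8, at an unadjusted p under 0.05 or with the block, and 0 with DESeq2), where 1.92% of all genes were lower, and 7.4% with the block. None were higher by any of these, where 3.51% of all were higher, and 8.99% with the block. The group ranges overlapped for 6 of the 9 members and for 60.4% of all tested genes. A member whose p missed the threshold is not thereby shown to be unchanged. Of the partners, TFDP1 fell from 224, 267 and 328 to 145, 133 and 182 CPM, a log2 fold change of -0.80 (SE 0.223, 95% interval -1.31 to -0.29, adjusted p = 0.042 and 0.0018 with the block). It missed the threshold without CTRL replicate 2 or 3 or without any of the Gln-depleted replicates (adjusted p from 0.054 to 0.15). TFDP2 went from 46 ± 5.23 to 62 ± 4.32 CPM (SD, n = 3), with a log2 fold change of 0.47 and an adjusted p of 0.11 without and 0.012 with the block. E2F6 had a log2 fold change of 0.35 (adjusted p = 0.26 without and 0.048 with the block).

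**Figure D4:**
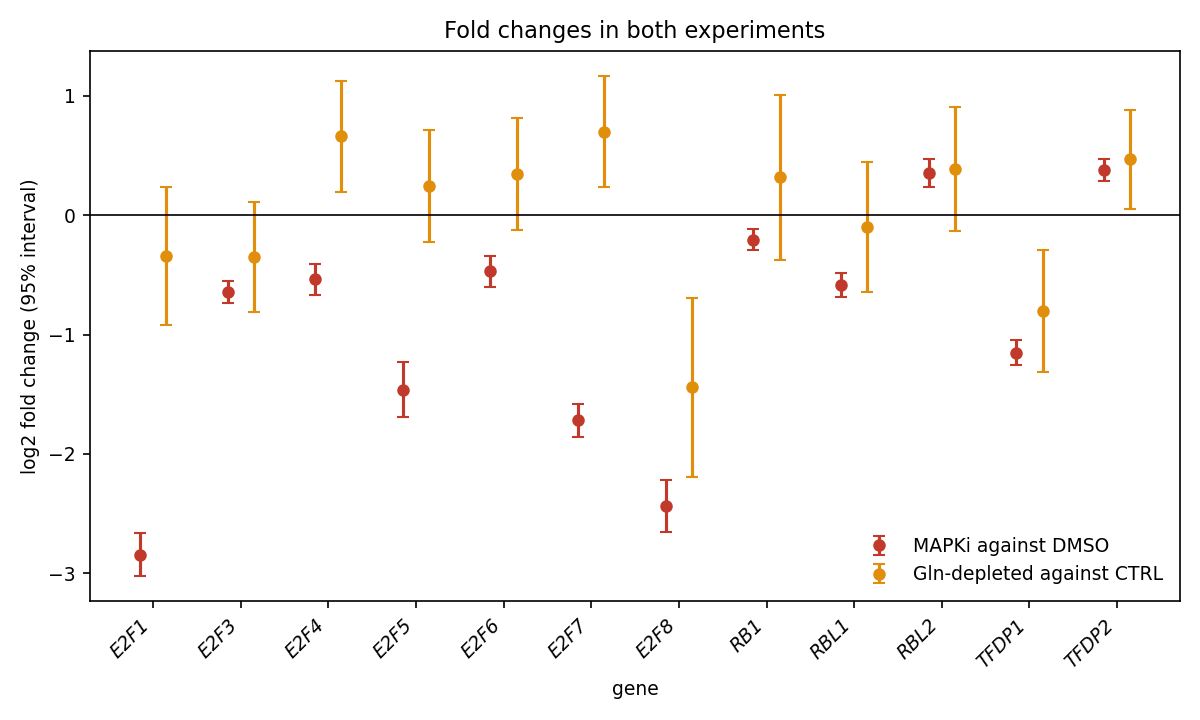
Log2 fold changes of the tested members and of E2F6, TFDP1 and TFDP2 with their 95% intervals, for MAPKi against DMSO and for Gln-depleted against CTRL. E2F1, E2F5, E2F7 and E2F8 lie far below 0 with MAPKi, and E2F7 and E2F4 lie on opposite sides of 0 in the 2 experiments. The intervals of the glutamine experiment are wider.

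Whether both treatments differ in their effect was tested directly, as the log2 fold change with MAPKi minus that with glutamine depletion over all 12 libraries. Of the members, 5 had a lower value with MAPKi. The difference was -2.47 (SE 0.28, 95% interval -3.08 to -1.86) for E2F1 (edgeR, adjusted p = 4.0e-05) and -2.38 (SE 0.197, 95% interval -2.81 to -1.95) for E2F7 (adjusted p = 4.2e-06). It was -1.67 (SE 0.194, 95% interval -2.10 to -1.25) for E2F5 (adjusted p = 4.7e-05) and -1.16 (SE 0.192, 95% interval -1.59 to -0.74) for E2F4 (adjusted p = 0.00056). E2F4, E2F5 and E2F7 were on opposite sides of 0 in the fits of both experiments. The test of the difference estimated the spread of each gene jointly over both experiments, although the glutamine experiment was the more variable. For E2F4, E2F5 and E2F7, among others, its SE was below that of the glutamine effect alone (0.204, 0.205 and 0.205). The intervals and p-values of the difference may therefore understate the spread. For E2F8, which was lower in both, the difference was -0.96 (SE 0.334, 95% interval -1.69 to -0.23, adjusted p = 0.038 and 0.053 with GC correction). The adjusted p was 0.063 without Gln-depleted replicate 3, where the difference was -0.60, and from 0.061 to 0.077 without CTRL replicate 1 or 2 or any of the DMSO or MAPKi replicates. E2F3 (-0.26, SE 0.179, 95% interval -0.65 to 0.13, adjusted p = 0.27) and RBL2 (0.0089, SE 0.225, 95% interval -0.48 to 0.50, adjusted p = 0.98) did not pass. RB1 had a difference of -0.49 (SE 0.322, 95% interval -1.19 to 0.21, adjusted p = 0.25 and 0.0041 with the block), and RBL1 of -0.45 (SE 0.235, 95% interval -0.96 to 0.068, adjusted p = 0.15 and 0.021 with the block). With the block and GC correction neither passed, at -0.11 for RB1 (adjusted p = 0.45) and -0.19 for RBL1 (adjusted p = 0.15). In all, 5 of 9 tested members were lower with MAPKi than with glutamine depletion, where 20.9% of all 12627 tested genes were lower, and 0 were higher (0 also at an unadjusted p under 0.05 and with DESeq2), where 19.4% of all were higher. With the block 7 members were lower, where 31.8% of all were lower and 28.8% higher, and with the block and GC correction 5, where 30.4% of all were lower. Sequencing batch and experiment coincide, so a batch that alters a treatment's effect cannot be told apart from the treatment.

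The genes around the switch were followed in 6 lists of 166 genes in all, whose log2 fold changes are given in parentheses. Of 20 cyclin-dependent kinases, their cyclins and their inhibitors, 16 were tested with MAPKi, 11 fell and 3 rose, with a median log2 fold change of -0.59, where 38.2% of all tested genes were lower and 39.8% higher. CCND1, the cyclin that ERK signalling induces, fell most in this list (-2.86, adjusted p = 3.1e-09), from 225, 264 and 214 to 31.2, 33.5 and 32.4 CPM. CCNA2, the cyclin of S phase (-1.72, adjusted p = 2.1e-09), and CDK6, a partner of cyclin D (-1.27, adjusted p = 4.7e-08), fell too. CDKN1A (p21) rose (1.06, adjusted p = 5.0e-08), as did CDKN1B (p27, 0.58, adjusted p = 2.6e-05), both inhibitors of these kinases. CDK7, which has a second copy in the table, did not pass (0.71, adjusted p = 0.37). Among 21 partners and subunits of repressor complexes, 13 of 19 tested fell and 3 rose (median -0.47). MYBL2 (-2.38, adjusted p = 2.6e-09) and MYBL1 (-1.65, adjusted p = 5.0e-09), MYB proteins that join the MuvB core, and LIN9, a subunit of that core (-1.34, adjusted p = 7.2e-07), fell most, and TFDP2 rose together with L3MBTL2 (0.32, adjusted p = 0.00096) and MGA (0.27, adjusted p = 0.00099), components of the E2F6 polycomb complex.

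The known targets of the family fell with MAPKi in both target lists. Of 50 E2F target genes of the G1/S transition, 49 were tested and all 49 fell, 48 of them by more than 1.5-fold (0 rose, also at an unadjusted p under 0.05 or with DESeq2), with a median log2 fold change of -1.94. The lowest were MCM10, a replication initiation factor (-3.51, adjusted p = 1.9e-09), POLE, the catalytic subunit of DNA polymerase epsilon (-3.32, adjusted p = 5.2e-10), and DTL, a substrate receptor of an S-phase ubiquitin ligase (-3.31, adjusted p = 4.3e-10). The smallest decrease was that of CCNE1, cyclin E1 (-0.32, adjusted p = 0.021), followed by GINS3 (-0.94, adjusted p = 4.8e-05) and DUT (-1.01, adjusted p = 3.0e-08). Of 40 DREAM and FOXM1 target genes of G2/M, 39 fell and 0 rose (37 by more than 1.5-fold, median -1.37), led by AURKB, a mitotic kinase (-2.25, adjusted p = 1.1e-09), CKS2 (-1.92, adjusted p = 2.4e-09) and KIF23 (-1.83, adjusted p = 2.1e-09). KIF20A (-0.60, adjusted p = 3.2e-05) and CENPF (-0.71, adjusted p = 7.1e-05) fell less, and CDC25B, a phosphatase that activates CDK1, did not pass (-0.040, adjusted p = 0.48). Over all tested genes 38.2% were lower, 18.1% by more than 1.5-fold, and the median was 0.019. The summed level of the melanocyte markers given above was also higher with MAPKi, and SOX10, MITF, PMEL, MLANA, TYR and DCT rose singly. Of the same markers, S100B fell (-2.12, edgeR, adjusted p = 2.1e-09) and S100A1 did not pass (0.13, adjusted p = 0.12).

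Of 17 genes for the turnover and modification of E2F proteins, 12 fell and 3 rose with MAPKi (median -0.47), where 38.2% of all genes were lower and 39.8% higher. FBXO5, an inhibitor of the anaphase-promoting complex (-2.10, adjusted p = 7.1e-09), SKP2, which targets E2F1 and p27 (-1.57, adjusted p = 7.1e-09), and CDC20 (-1.49, adjusted p = 1.3e-08) fell most. The acetyltransferases KAT2B (2.05, adjusted p = 9.8e-10) and EP300 (0.48, adjusted p = 1.4e-05) and the deacetylase SIRT1 (0.42, adjusted p = 3.7e-05) rose. Of 23 corepressors that pocket proteins recruit, 14 fell and 6 rose (median -0.31). The histone methyltransferase SUV39H1 (-1.75, adjusted p = 7.3e-09), DNMT1 (-1.43, adjusted p = 7.3e-09) and PHF19 (-1.38, adjusted p = 2.8e-08) fell most, and KMT5B (0.97, adjusted p = 8.8e-07), HDAC1 (0.73, adjusted p = 1.2e-06) and KDM5A (0.48, adjusted p = 4.3e-05) rose most.

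With glutamine depletion the medians of both target lists were below 0 as well. Of 50 G1/S targets, 22 fell and 0 rose (4 by more than 1.5-fold, median -0.88), and of 40 G2/M targets, 15 fell and 0 rose (1 by more than 1.5-fold, median -0.81). Of all genes 7.94% were lower, 1.92% by more than 1.5-fold, and the median was 0.016. With the replicate block, 42 G1/S targets fell and 1 rose, and 30 G2/M targets fell and 1 rose, where 22.9% of all genes were lower and 25.6% higher. In edgeR without the block 0 targets rose, against 1 in each list at an unadjusted p under 0.05 and 0 and 1 with DESeq2. In experimental batch 2 alone, 43 G1/S targets fell, where 17.2% of all genes were lower. These counts depended on single libraries: 7, 9, 4 and 9 G1/S targets fell without CTRL replicate 2, CTRL replicate 3, Gln-depleted replicate 2 or Gln-depleted replicate 3, and 35 without Gln-depleted replicate 1. The shares of all genes lower without these libraries were, in the same order, 2.85, 3.4, 2.02, 4.17 and 11.5%. Past 1.5-fold these counts were 0, 0, 0, 1 and 16, where 0.544, 0.648, 0.48, 1.13 and 3.37% of all genes were lower. The G2/M count was 9 without CTRL replicate 2, 4 without Gln-depleted replicate 2 and 7 without Gln-depleted replicate 3, and past 1.5-fold 0 without any of these and 5 without Gln-depleted replicate 1. MCM10 (-1.57, adjusted p = 0.0076) and MCM4, a subunit of the replicative helicase (-1.52, adjusted p = 0.029), were among the lowest G1/S targets, besides ASF1B, which had 556 reads in CTRL replicate 2 and 4 to 44 in the other libraries of the experiment (-3.87, adjusted p = 0.057 and 0.035 with the block). At the other end stood EZH2 (0.53, adjusted p = 0.10 and 0.013 with the block), GINS3 (0.10, adjusted p = 0.78) and BRCA1 (0.024, adjusted p = 0.96). Of the G2/M targets, PIF1 (-1.76, adjusted p = 0.032), KIF20A (-1.69, adjusted p = 0.011) and AURKB (-1.42, adjusted p = 0.013) fell most, while CKS1B (0.59, adjusted p = 0.067 and 0.012 with the block), CDC25B (0.27, adjusted p = 0.37) and ECT2 (0.099, adjusted p = 0.87) had the highest values.

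The kinase list moved both ways under glutamine depletion, with 4 of 18 tested genes lower and 5 higher (median 0.49, and 4 lower and 10 higher with the block). Over all genes 7.94% were lower and 9.73% higher, and 22.9% and 25.6% with the block. Without CTRL replicate 2 these counts were 2 and 3, without Gln-depleted replicate 2 the first was 2, and without CTRL replicate 3 or Gln-depleted replicate 3 the second was 3. CDK2, the partner of cyclins E and A, fell from 279, 292 and 292 to 87, 91.1 and 96.1 CPM (-1.62, adjusted p = 0.0015), and CCND3 (-1.18, adjusted p = 0.011) and the inhibitor CDKN2C (-1.16, adjusted p = 0.022) fell as well. CCND1, by contrast, rose from 423, 459 and 487 to 2052, 1807 and 1311 CPM (1.95, adjusted p = 0.0017), the opposite sign to its change with MAPKi. CCND2, cyclin D2, had 0 reads in each CTRL library and 1.35 to 12.9 CPM in the Gln-depleted libraries (edgeR, adjusted p = 0.0073). The mean of the latter, 6.85 CPM, was 85.8-fold a floor of 3 counts per library (0.0798 CPM), and single libraries spread widely around that mean. CDK7, whose level is uncertain because of its copy, was higher in the test (3.95, adjusted p = 0.015). Of the partners, 2 of 19 fell and 1 rose (3 and 6 with the block): MYBL2 (-1.44, adjusted p = 0.0049) fell with TFDP1, LIN52, a MuvB subunit, rose (0.70, adjusted p = 0.033), and FOXM1 (-0.47, adjusted p = 0.26 and 0.020 with the block), LIN54 (0.65, adjusted p = 0.25 and 0.0036 with the block) and RYBP, which has a second copy (1.02, adjusted p = 0.14 and 0.036 with the block), passed with the block and not without it. Leaving out any library but CTRL replicate 1 left 1 partner lower, and leaving out any but Gln-depleted replicate 1 left 0 higher.

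Of the turnover genes, 5 of 17 fell and 1 rose with glutamine depletion (10 and 3 with the block, median -0.56), against 7.94% and 9.73% of all genes (22.9% and 25.6% with the block). CCNF (-1.35, adjusted p = 0.032) and CDC20 (-1.12, adjusted p = 0.021), both parts of ubiquitin ligases, fell, SIRT1 rose (1.13, adjusted p = 0.032), and TRIM28 (-1.10, adjusted p = 0.059 and 0.00080 with the block), USP11 (0.61, adjusted p = 0.17 and 0.013 with the block) and MDM2 (0.52, adjusted p = 0.24 and 0.0091 with the block) passed with the block and not without it. The count of lower turnover genes was 2, 3, 0 and 1 without CTRL replicate 2, CTRL replicate 3, Gln-depleted replicate 2 or Gln-depleted replicate 3, and SIRT1 was not higher without CTRL replicate 1 or 3 or Gln-depleted replicate 2 or 3. Of the corepressors, 0 of 23 fell in edgeR and 1, KMT5B, rose (1.58, adjusted p = 0.014), against 8 lower and 5 higher with the block (median -0.23). At an unadjusted p under 0.05, 4 were lower, with DESeq2 0, and without Gln-depleted replicate 1 the count was 3, while KMT5B missed the threshold without Gln-depleted replicate 2 or 3. The lowest were DNMT1 (-0.79, adjusted p = 0.10 and 0.0012 with the block), SUV39H1 (-0.69, adjusted p = 0.12 and 0.0031 with the block) and SMARCA4 (-0.68, adjusted p = 0.11 and 0.0020 with the block), and ARID4B (0.68, adjusted p = 0.28 and 0.0060 with the block) and RBBP8 (0.58, adjusted p = 0.43 and 0.0088 with the block) followed KMT5B at the high end. In the test of the difference, 35 of 50 G1/S targets and 13 of 40 G2/M targets were lower with MAPKi than with glutamine depletion, 0 and 1 were higher, and 20.9% of all genes were lower and 19.4% higher. With the block, 40 and 29 were lower and 0 and 2 higher, where 31.8% of all were lower and 28.8% higher, and without CTRL replicate 1, 21 G2/M targets were lower. The same counts were 6 lower and 3 higher of 18 kinases and inhibitors, 7 and 0 of 19 partners, 3 and 1 of 17 turnover genes and 5 and 1 of 23 corepressors. With the block they were 8 and 3, 12 and 0, 7 and 4, and 12 and 4. Only 3 corepressors were lower without any 1 of the DMSO or MAPKi libraries or without Gln-depleted replicate 2, and without Gln-depleted replicate 1, 4 turnover genes, 3 corepressors and 1 partner were higher.

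**Figure D5:**
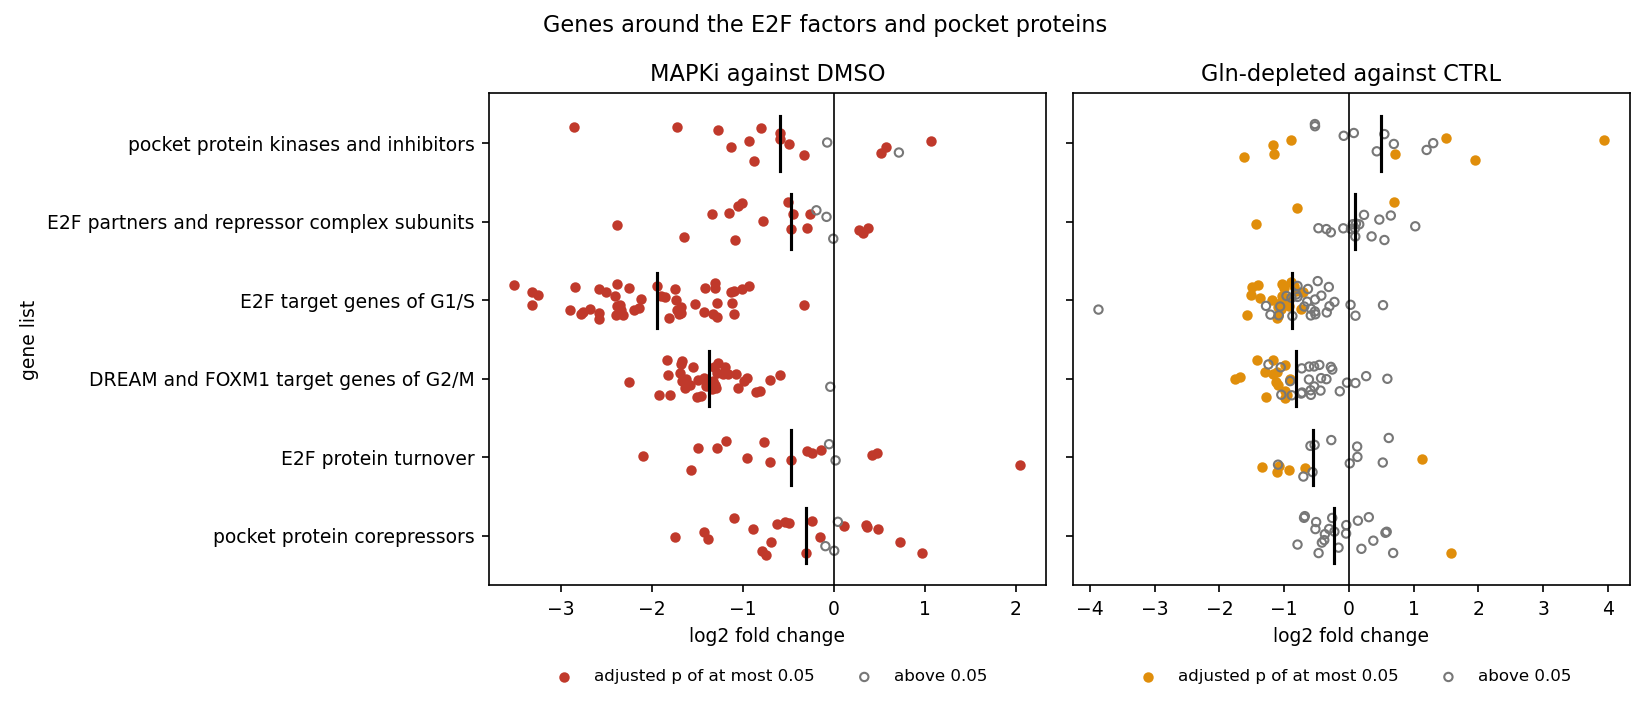
Log2 fold change of each tested gene of the 6 lists with MAPKi and with glutamine depletion, with the median of each list as a black bar and filled points for genes with an adjusted p of at most 0.05; CCND2 is not drawn. The G1/S and G2/M target lists sit below 0 with medians of -1.94 and -1.37 with MAPKi and of -0.88 and -0.81 with glutamine depletion. Most points of the glutamine experiment are open in the fit drawn, which has no replicate block. With the block, 94 of 162 tested genes of the lists were lower and 26 higher, where 22.9% and 25.6% of all genes were.

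The coding sequences of the members differed in composition, which the choice of members did not use. The GC content ranged from 39% in RB1 and 41.2% in RBL1 to 62.6% in E2F2 and 65.1% in E2F1, around a median of 52.1% over 12549 tested genes. Codons ending in A or T made up 20.4% of E2F1, 35.1% of E2F4, 42.2% of E2F3, 56% of E2F7, 57.6% of RBL2 and 66.3% of RB1 (median 41.5%). Their share was 21.1% in E2F2, 52.2% in E2F8, 52.6% in E2F5 and 64.9% in RBL1. Codons for aspartate and glutamate, the amino acids whose supply the study followed, ranged from 10.0% in E2F8 to 14% in E2F1, within the central range of 7.77 to 16% that spans most of these genes (median 11.8%). E2F8, with the lowest share, and E2F1, with the highest, were the tested members with the strongest decreases under MAPKi. A link between composition and change was not tested.

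Genes whose levels followed those of a member most closely were sought over the 12 libraries, on log2 CPM centred within each experiment, among the 10730 genes whose normalized counts averaged 100 or more. For E2F1 they were KCNC4 (Pearson r = 0.994), UCK2 (0.991), PSMG1 (0.991), ZMYND19 (0.990) and NPPC (0.990). For RBL2 they were SBF2 (0.980), ZBTB26 (0.976), PTPN13 (0.975), KIF27 (0.972) and BCLAF3 (0.968). Among the members, E2F5 (0.904), E2F8 (0.890), E2F3 (0.816) and E2F7 (0.811) were closest to E2F1, RBL1 stood at 0.694, E2F4 at 0.473 and RB1 at 0.067, and RBL2 ran opposite at -0.688. Many genes outside the family were closer: among the 10730 genes, E2F5 ranked 691, E2F8 790, E2F3 1353 and E2F7 1382. These values are a description without a test, since the libraries share the same treatments and the groups lie apart.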

How the data were processed

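RNA was sequenced as paired reads after depletion of ribosomal RNA, from cytoplasmic lysates per the labels. The authors trimmed reads with fastp 0.20.1, aligned them with HISAT2 2.2.1 to GRCh38.p13 and deposited raw counts per gene, made with HTSeq 0.13.5 over exons. Whether counting used the strand is not given in the sources used here, so antisense and overlapping genes cannot be told apart. From these counts, protein-coding genes (RefSeq type by symbol) whose normalized counts averaged 10 or more over the 6 libraries of an experiment were tested with the quasi-likelihood method of edgeR 4.0.16 (R 4.3.3) after TMM normalization, with treatment as the only term, against no change and against a 1.5-fold change. P-values were adjusted by Benjamini-Hochberg over all tested genes, and genes passed at 0.05. The difference between experiments was a contrast over 12 libraries. CPM used TMM-scaled library sizes. TPM used the merged exon length of GENCODE transcripts and the sum over protein-coding genes with a length, without TMM. Standard errors were derived from the F statistic.

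The 10 members and the 6 gene lists were chosen with earlier results of these data known. Genes named were all members (a gene named by several parts counts under each), E2F6, TFDP1, TFDP2 and TFDP3, the 3 lowest and 3 highest log2 fold changes of each list in each experiment, the 5 genes most like E2F1 and most like RBL2, and genes that check the labels. Deviations of same-numbered libraries from their group means correlated at 0.66, 0.55 and 0.43 for CTRL and Gln-depleted libraries and at 0.12, 0.024 and 0.043 for DMSO and MAPKi libraries. As each of the former exceeded 0.1, the replicate block is printed beside results of the glutamine experiment. No 2 libraries agreed within sampling noise. The fit was tested on simulated data. Alternatives were DESeq2 1.42.0, other filters and thresholds, GC correction, the block, 1 fit of all 12 libraries and leaving out each library. The fit of experimental batch 2 alone was added after seeing the data. One cell type marker of the list is not reported here. Of 44659 genes, 36524 matched RefSeq by symbol and 513 by an older symbol. Figures were drawn with matplotlib 3.10.9.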

Additional observations from a re-analysis of the deposited data

Results flagged for a closer look

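Of the 9 tested members, 5 had an effect of MAPKi that differed from that of glutamine depletion in the test of the difference itself (edgeR, over 12 libraries). All 5 were lower, where 20.9% of all 12627 tested genes were lower and 19.4% higher. Spread was estimated jointly over both experiments, so the intervals below may be too narrow. E2F1 fell with MAPKi, while its value with glutamine depletion did not pass the test, the difference of its log2 fold changes being -2.47 (95% interval -3.08 to -1.86). E2F7 was lower with MAPKi and higher with glutamine depletion, a difference of -2.38 (95% interval -2.81 to -1.95). The same opposite signs gave -1.16 for E2F4 and -1.67 for E2F5, whose value with glutamine depletion did not pass. The higher level of E2F4 with glutamine depletion did not pass in edgeR as first fitted. It passed with the replicate block, alone or with GC correction, the DESeq2 Wald test and 1 fit of all 12 libraries. It also passed in experimental batch 2 alone, a fit added after seeing the data, and on leaving out Gln-depleted replicate 1. The other choices left it above the threshold, among them GC correction alone, DESeq2 size factors and leaving out any other library of that experiment. E2F8 was lower in both, and its difference of -0.96 had an adjusted p of 0.038, which became 0.053 with correction for GC content.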

How the results depend on the processing

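Of 660 repeats of single log2 fold changes under another choice, 594 kept their direction and their side of the threshold. With MAPKi this held for 188 of 192, the exceptions being RB1 (1 fit of all 12 libraries, adjusted p = 0.48 in edgeR; GC correction, 0.066; replicate block with GC correction, 0.050) and RBL2 (12-library fit, 0.082). The 12-library fit left 0 members and 8 listed genes higher with MAPKi, 2 of them past 1.5-fold, and a 2-fold threshold left 1. Over all tested genes, 24.5% were higher in the 12-library fit, 11.1% past 1.5-fold, and 8.38% were higher at the 2-fold threshold. With glutamine depletion, 0 members were lower at an adjusted p of 0.01, 2 in the 12-library fit and 0 to 1 on leaving out a library. Higher members numbered 0 with DESeq2 size factors, no filter, every gene of the table or an adjusted p of 0.01, 2 with the DESeq2 Wald test, the 12-library fit, the block with GC correction or experimental batch 2 alone, 3 with the replicate block, and 0 to 2 on leaving out a library. Over all tested genes, 9.78% were higher with DESeq2 size factors, 7.37% with no filter, 8.84% with every gene and 13.9% with the Wald test. The shares of all genes under the other choices stand beside the listed genes below. Past 1.5-fold, 1 member was lower in the 12-library fit, with the block and with the block and GC correction, and 0 to 1 on leaving out a library. Among all listed genes with glutamine depletion, 46 were lower, against 7 at 0.01, 90 in the 12-library fit, 94 with the block, 78 with GC correction, 109 with both, 83 in batch 2 alone and 11 to 64 on leaving out a library (11 without Gln-depleted replicate 2, 20 without CTRL replicate 2, 21 without Gln-depleted replicate 3 and 25 without CTRL replicate 3). Over all tested genes, the shares lower were 7.94% as first fitted, 1.59% at 0.01, 21.5% in the 12-library fit and 22.9% with the block. They were 14.8% with GC correction, 25.3% with both, 17.2% in batch 2 and 2.02 to 11.5% on leaving out a library. Of the listed genes 8 were higher, against 3 at 0.01, 15 in the 12-library fit, 26 with the block, 23 with both, 16 in batch 2 and 3 to 8 on leaving out a library. Over all tested genes, 9.73% were higher, against 3.16% at 0.01, 19.6% in the 12-library fit and 25.6% with the block. This share was 23.8% with both, 17.8% in batch 2 and 3.87 to 10.6% on leaving out a library. Past 1.5-fold, 7 listed genes were lower, against 1 at 0.01, 36 in the 12-library fit, 51 with the block, 23 with GC correction, 58 with both, 1 at a 2-fold threshold, 45 in batch 2 and 1 to 27 on leaving out a library, and 4 were higher, against 1 at 0.01, 7 with the block or with both, 2 at a 2-fold threshold and 2 to 4 on leaving out a library. Over all tested genes, 1.92% were lower past 1.5-fold, against 0.384% at 0.01, 6.68% in the 12-library fit and 7.4% with the block. That share was 4.05% with GC correction, 7.96% with both and 0.488% at a 2-fold threshold. It was 5.24% in batch 2 and 0.48 to 3.37% on leaving out a library. Higher past 1.5-fold were 3.51% of all, against 1.37% at 0.01, 8.99% with the block, 8.09% with both and 1.58% at a 2-fold threshold. Leaving out a library gave 1.54 to 3.86%. In the difference, 68 listed genes were lower, against 43 at 0.01, 106 with the block and 105 in batch 2, and 6 higher, against 3, 13 and 15 under the same choices, 14 with the block and GC correction and 4 to 14 on leaving out a library (14 without Gln-depleted replicate 1). Of all tested genes, 20.9% were lower in the difference, against 13.8% at 0.01, 31.8% with the block and 31.9% in batch 2. The shares higher were 19.4%, and 12.5, 28.8 and 27.4% under the same choices. They were 29% with the block and GC correction and 15.6 to 24.9% on leaving out a library. Values near 0 changed sign: RBL1 with glutamine depletion ranged from -0.30 to 0.067 on leaving out a library, the difference for RBL2 was -0.010 with either DESeq2 choice, -0.067 in batch 2 and -0.17 to 0.12 on leaving out a library, and that for TFDP2 was 0.17 with GC correction, 0.15 with the block and GC correction and -0.13 to 0.019 on leaving out a library. The cause of these shifts was not tested. Besides the results given above with it, the replicate block changed the outcome of TFDP1 in the difference (adjusted p = 0.042). Standard errors of the 9 members ran from 0.039 to 0.10 with MAPKi and from 0.20 to 0.33 with glutamine depletion.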

Other observations

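Some genes of the pathway appear in the table under further copies of the same symbol, and their levels are uncertain. The further copy of E2F2 was tested only in the fit of every gene, with a log2 fold change of -1.30 with MAPKi (edgeR, adjusted p = 0.17) and of -0.30 with glutamine depletion (adjusted p = 0.83). CDK7 had 1452 reads over the 12 libraries and its copy 695, and RYBP had 393 reads and its copy 7051. A lineage marker list set beside these results also moved by gene: in the MAPKi libraries the melanocyte pigment gene DCT rose by 5.30 and PMEL by 2.93 on the log2 scale, while S100B fell by 2.12.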
